A study of Rattus norvegicus with 12 samples.

Results

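Bone from around cpTi mini-implants that had been loaded cyclically was compared with bone from around cpTi mini-implants left static, in 3 libraries each, 6 of the 12 libraries of the series. cpTi is the label of the implants that the series text calls titanium. All rats were wild type, the implants sat at the site of the upper first molar, the load ran for 2 weeks, and a disc of tissue 4 mm across was taken. The other 6 libraries came from the same 2 conditions beside a second implant material labelled Nb3. They serve as a comparison, and their spread also enters every SE, interval and p-value given for cpTi, because all 12 libraries were fitted together. All 15268 genes that reached 1 FPKM in at least 3 of the 12 libraries were used, of 33801 in the deposited table. FPKM is the number of fragments per kilobase of gene, scaled by library depth, and every difference below is the mean log2(FPKM + 1) of the loaded libraries minus that of the non-loaded ones. The labels do not say whether the replicates came from separate animals. The p-values therefore measure only the spread within the 4 groups of these 12 libraries, which may be technical. The labels give no age, sex or strain of the rats and no force or frequency of the load.

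Bone is built by osteoblasts, which secrete a matrix of type I collagen and mineralize it. Some of these cells become enclosed in the matrix as osteocytes, which are regarded as the main load sensors of bone and which restrain bone formation through sclerostin, the product of Sost. Osteoclasts, which descend from the monocyte lineage, remove bone, and osteoblast-lineage cells control them through the ligand RANKL and its decoy receptor osteoprotegerin. Marrow lies within the same tissue and contributes transcripts of granulocytes, red cell precursors and B cell precursors.

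The libraries held 12.9 to 15.9 M reads on genes and correlated with each other at 0.932 to 0.964 across the 15268 genes. Pairs of a loaded and a non-loaded library spanned 0.932 to 0.959, a range that overlapped that of pairs within 1 group (0.936 to 0.964). Bone markers were abundant in all 6, with Col1a1 at 1569.6 to 5816 FPKM, while the tooth markers Dspp and Ambn reached at most 0.251 FPKM and the epithelial keratin Krt5 at most 0.114 FPKM. The epithelial adhesion gene Epcam, in contrast, was at 2.75, 0.628 and 0.159 FPKM in loaded and 0.0678, 4.96 and 6.65 FPKM in non-loaded libraries (replicates 1, 2 and 3, the order used throughout), and 7 of 15 matched oral epithelium genes passed the filter. Marrow markers were present throughout, for example Mpo at 332 to 726 FPKM. Loaded replicate 1 stood apart in fat and muscle transcripts: Adipoq, the fat cell hormone adiponectin, was at 50.97, 0 and 9.37 FPKM in loaded and 10.8, 0.45 and 8.47 FPKM in non-loaded libraries, and the muscle actin Acta1 was at 8.32 FPKM in that library and at most 0.186 FPKM in the other 5. The tissue is a mixture, so fewer cells of a type and less RNA per cell cannot be told apart in any result below.

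Beside cpTi, many bone-forming genes had higher levels, and many B lineage and neutrophil granule genes lower levels, in every loaded library. Other marrow lists did not share the lower levels to that extent. Only 1 of the 15268 genes passed the test (0.00655%), and it was a small RNA. None was called higher (0%). At an unadjusted p under 0.05 there were 1062 genes (6.96%), 418 higher (2.74%) and 644 lower (4.22%) in loaded bone. Without loaded replicate 2 that count was 575, and without non-loaded replicate 1 it was 621. All 3 loaded libraries lay above all 3 non-loaded ones for 1069 genes (7%) and below them for 1435 (9.4%). The median difference over all genes was -0.03, with 45.4% of genes above 0 and 54.6% below. A difference of at least 1 in size was found for 158 genes upward and 145 downward, of which 91 and 67 had no overlap between the groups.

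**Figure D1:**
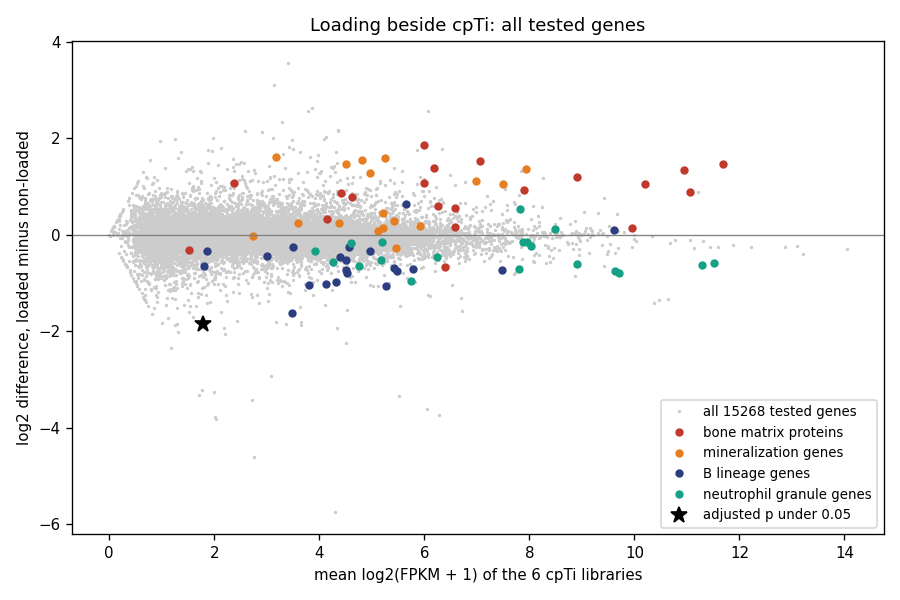
Mean log2(FPKM + 1) over the 6 cpTi libraries (x axis) against the log2 difference, loaded minus non-loaded (y axis), for all 15268 tested genes, with 4 gene lists in colour and the 1 gene with an adjusted p under 0.05 as a star. Bone matrix and mineralization genes lie mostly above 0 at middle to high levels, and B lineage and neutrophil granule genes mostly below 0.

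The called gene was Gm25820 (ENSRNOG00000055118, a small Cajal body RNA of 128 bases at chr2:174156951-174157078 as the deposited table gives it). Its level was 0.559, 0.968 and 0.934 FPKM in loaded and 5.46, 5.23 and 5.82 FPKM in non-loaded libraries, and it fell by 1.84 log2 units (SE 0.20; limma, Benjamini-Hochberg adjusted p = 0.0279). These values rest on 5 reads in all loaded and 31 in all non-loaded libraries, in libraries selected for polyadenylated RNA. The call was lost when any 1 of the 6 cpTi libraries was left out (adjusted p from 0.0544 to 0.237 by limma), and with the cpTi libraries alone (adjusted p = 0.0618), a replicate block (0.147), a pseudocount of 0.1 (0.350) or limma-voom on whole reads (0.650), while the direction stayed. Without non-loaded replicate 1 another 4 genes were called lower. An unnamed gene on chromosome 4 (162002326 to 162009704 in the deposited table) came next, at 6.96, 5.98 and 5.95 against 13.6, 13.5 and 13.03 FPKM (log2 difference -0.98, adjusted p = 0.0539). Another unnamed gene, on chromosome 8 (70580141 to 70605027), was at 0, 0.204 and 0.786 against 4.6, 3.67 and 2.9 FPKM (-1.86, adjusted p = 0.0706), from 5 reads in all loaded libraries. Among all 406 genes of small RNA types the median difference was -0.18, with 17 above and 35 below without overlap. Neither count was a larger share than that of all genes (7% above and 9.4% below).

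The 12 highest genes, among those with a symbol, a mean of at least 5 FPKM in 1 group and no overlap, were mostly genes of bone-forming cells, and none passed the test (adjusted p 0.529 to 0.695). Panx3, a hemichannel of osteoblasts and maturing chondrocytes, led at 16.8, 29.4 and 18.3 FPKM in loaded and 3.38, 2.09 and 5.17 FPKM in non-loaded libraries (log2 difference 2.32, SE 0.69, adjusted p = 0.606). Slc13a5, which imports citrate, a component of bone mineral, was at 21.1, 15.6 and 12.9 against 3.88, 1.74 and 5.08 FPKM (1.99). The loaded libraries were thus well above the non-loaded ones in both genes. Another 7 of the 12 are collagen or mineralization genes and are described with their groups below. The remaining genes were Ca3, a carbonic anhydrase of muscle and fat (1.76), Adamts18, a secreted protease (1.48), and Col22a1, a collagen of tissue junctions (1.48). Ca3 was highest in loaded replicate 1, at 204, 79.7 and 73.2 FPKM in loaded against 52.2, 10.7 and 49.7 FPKM in non-loaded libraries. That library also held the most fat and muscle transcripts, and the part of these cells in the Ca3 value was not tested.

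**Figure D2:**
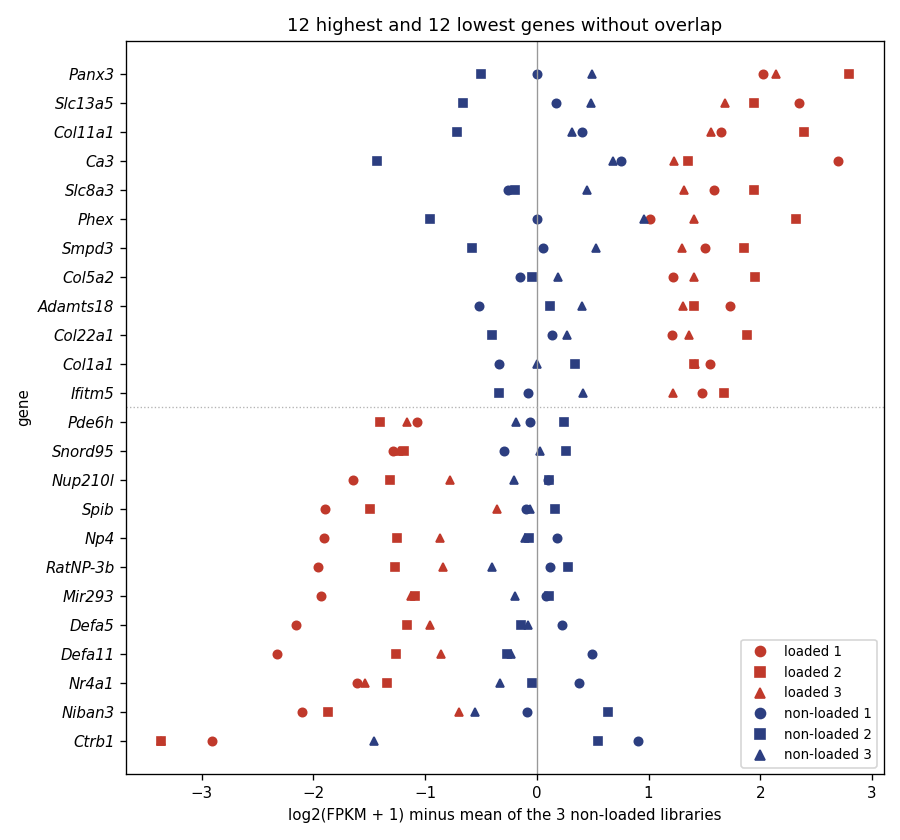
log2(FPKM + 1) of each library minus the mean of the 3 non-loaded libraries (x axis) for the 12 highest and 12 lowest genes (y axis), loaded libraries in red and non-loaded in blue, with 1 symbol per replicate number. No gene shown has overlapping groups because that was required for the choice, and the spread between replicates of 1 group reaches more than 1 unit for several genes.

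Type I collagen and most other bone matrix proteins had higher levels in loaded bone, though none passed the test. Of 21 matched genes 20 were tested, and 12 had all loaded libraries above all non-loaded ones (60%, against 7% of all genes) while 1 had all below (5%, against 9.4%). Their median difference was 0.91 (-0.03 over all genes), and 0 were called (smallest adjusted p = 0.529). Col1a1 (ENSRNOG00000003897, chr10:79883622-79900624 as the deposited table gives it), the main chain of type I collagen, was at 5816, 5284 and 5304 FPKM in loaded and 1569.6, 2519.7 and 1983 FPKM in non-loaded libraries, a 2.70-fold ratio of the means (log2 difference 1.46, 95% interval 0.54 to 2.37, adjusted p = 0.602). Its partner chain Col1a2 was at 3149, 3309 and 2973 against 919, 1489.6 and 1398 FPKM (1.34). The lowest loaded library exceeded the highest non-loaded one in both chains.

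The minor fibril collagens, which nucleate and limit the width of collagen fibrils, differed in the same direction. Col5a2 was at 183, 304 and 209 FPKM in loaded and 70.1, 75.8 and 89.3 FPKM in non-loaded libraries (1.53, SE 0.31, adjusted p = 0.529). Col11a1 was at 104, 175 and 97.8 against 43.2, 19.4 and 40.7 FPKM (1.87). Col5a1 (1.08), Col11a2 (1.39) and Col24a1 (1.07) also had no overlap. Among the non-collagen proteins Sparc, a collagen-binding glycoprotein, was at 1542, 1854 and 1666 against 609, 949.6 and 946 FPKM (1.04). Ibsp, the bone sialoprotein that binds mineral, was at 659.8, 766 and 735 against 294, 237 and 451 FPKM (1.19), and the proteoglycan Bgn at 364, 353 and 271 against 152, 158 and 209 FPKM (0.93). In these 3 genes every non-loaded value was below every loaded one. Bglap, which encodes osteocalcin, overlapped between the groups, since loaded replicate 1 (2133 FPKM) lay below non-loaded replicate 2 (2179 FPKM). Spp1, which encodes osteopontin, showed almost no difference at 798, 1403 and 995 against 542, 1293 and 1176 FPKM (0.15, 95% interval -0.72 to 1.01), and its sign reversed without loaded replicate 2 (-0.07) or non-loaded replicate 1 (-0.25). Mgp, an inhibitor of mineralization made by cartilage and vessel walls, was the 1 gene of the list below, at 41.8, 85.7 and 77.8 against 91.03, 116 and 109.8 FPKM (-0.68).

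**Figure D3:**
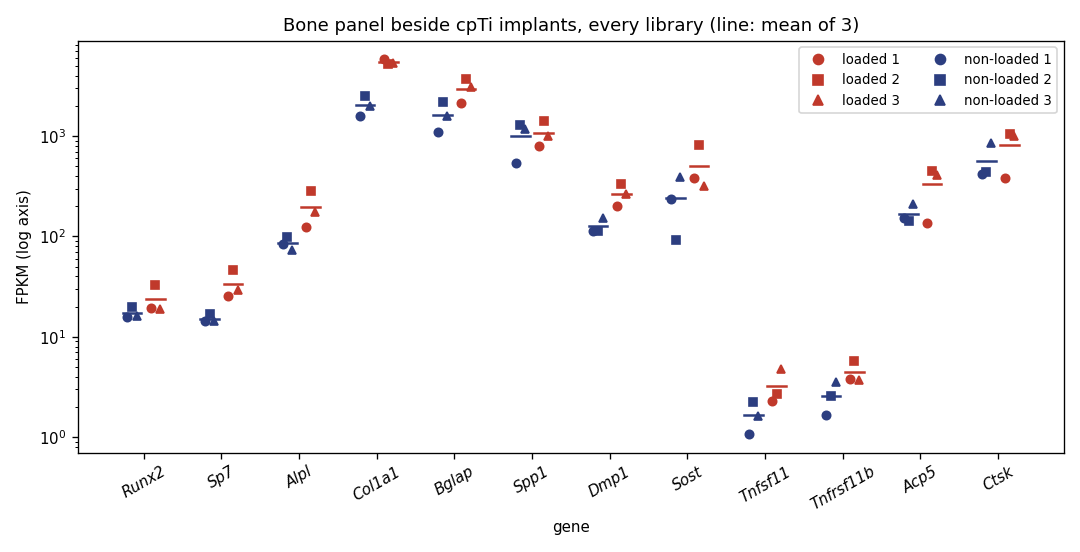
FPKM on a log axis (y axis) of 12 bone genes (x axis) in each of the 6 cpTi libraries, loaded in red and non-loaded in blue, with 1 symbol per replicate number and a line at the mean of 3. Sp7, Alpl, Col1a1, Dmp1, Tnfsf11 and Tnfrsf11b have no overlap between the groups, and the other 6 overlap.

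Genes that fold, modify, cross-link and secrete collagen showed the widest separation after the matrix genes themselves. All 29 matched genes were tested, 17 stood above without overlap (58.6%) and 0 below (0%), the median difference was 0.61, and 0 were called (smallest adjusted p = 0.572). Without non-loaded replicate 1 the median was 0.39. The collagen chaperone Serpinh1 was at 238, 285 and 250.1 FPKM in loaded and 103, 186 and 121 FPKM in non-loaded libraries (0.95). The prolyl isomerase Fkbp10 was at 57.2, 72.3 and 55.9 against 21.6, 36.4 and 29.96 FPKM (1.07). In both, non-loaded replicate 1 was the lowest library. Lox, which starts collagen cross-links, was at 10.7, 20.6 and 25.5 against 4.56, 7.18 and 9.5 FPKM (1.27), and Plod2, which hydroxylates lysines for them, at 72.4, 151 and 75.99 against 37.8, 44.6 and 43.1 FPKM (1.15). Sec24d, a coat protein that exports collagen from the endoplasmic reticulum, was at 17.1, 24.2 and 18.7 against 9.3, 11.7 and 11.7 FPKM (0.81, SE 0.18, adjusted p = 0.572). P3h3 (0.61, SE 0.15) and P3h4 (0.97, SE 0.26), of the complexes that modify collagen prolines and lysines, also stood above. The general chaperones of secretion, by contrast, had a median of 0.09 over 19 genes, with 3 above and 1 below without overlap (15.8% and 5.26%).

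Most genes of mineral formation had higher levels in loaded bone, though none passed the test. Of 17 tested genes (18 matched) 15 were above 0, 9 stood above without overlap (52.9%) and 1 below (5.88%), with a median of 0.44, which was 0.29 without non-loaded replicate 3. The genes above include those that provide or permit phosphate for mineral: Alpl, the alkaline phosphatase of bone, at 124, 287 and 176 FPKM in loaded and 83.4, 99.7 and 73.7 FPKM in non-loaded libraries (1.11), and Phex, an endopeptidase that regulates phosphate, at 43.5, 109 and 57.7 against 21.1, 10.3 and 41.8 FPKM (1.58). Loaded replicate 2 was the highest library in both. Smpd3, a sphingomyelinase needed for mineralization, was at 45.8, 58.5 and 39.5 against 16.1, 10.02 and 22.7 FPKM (1.55). Ifitm5, an osteoblast membrane protein, was at 37.5, 42.9 and 31.1 against 12.03, 9.93 and 17.4 FPKM (1.46), and Slc8a3, a sodium-calcium exchanger, at 14.5, 18.8 and 11.9 against 3.32, 3.49 and 6.05 FPKM (1.62). Tmem119, an osteoblast membrane protein, was at 42.6, 58.7 and 44.01 against 12.2, 26.6 and 21.2 FPKM (1.28). Enpp1, which makes the mineralization inhibitor pyrophosphate, overlapped (0.24), and the phosphate importer Slc20a1 was below, at 36.6, 39.7 and 40.5 against 47.9, 53.6 and 41.5 FPKM (-0.28).

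Transcription factors of the osteoblast differed less than the genes of matrix. Of 19 tested (22 matched) 6 stood above without overlap (31.6%) and 0 below (0%), with a median of 0.22, which moved between 0.10 without loaded replicate 2 and 0.39 without loaded replicate 1. Runx2, which commits cells to the osteoblast lineage, overlapped at 19.2, 32.9 and 18.97 FPKM in loaded and 15.8, 19.9 and 16.3 FPKM in non-loaded libraries (0.39). Sp7, which encodes osterix and acts after Runx2, was at 25.3, 46.3 and 29.1 against 14.4, 16.9 and 14.4 FPKM (1.05, 95% interval -0.04 to 2.13). Creb3l1, which drives collagen synthesis and secretion, was at 25.9, 44.6 and 36.01 against 10.9, 22.9 and 16.1 FPKM (1.07). Loaded replicate 2 was the highest of the 6 libraries in all 3 genes. Dlx3 (0.92), Twist1 (0.75) and Dlx5 (0.64) also stood above without overlap.

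Most osteocyte genes had higher levels in loaded bone without passing the test, and Sost was among those whose groups overlapped. All 18 matched genes were tested, of which 12 were above 0 and 6 below (lowest -0.62). Of the 18, 7 stood above without overlap (38.9%) and 0 below (0%), and the median was 0.59. Dmp1, an early osteocyte phosphoprotein, was at 201, 333 and 266 FPKM in loaded and 112, 113 and 153 FPKM in non-loaded libraries (1.06), and Mepe, a later one, at 338, 553 and 318 against 149, 100.1 and 229.6 FPKM (1.37). Pdpn, which marks the forming dendrites, was at 9.28, 15.7 and 10.7 against 4.29, 4.91 and 6.74 FPKM (1.02), and Irx5 at 10.1, 22.4 and 13.5 against 5.55, 5.14 and 8.69 FPKM (1.09). All 4 had their highest value in loaded replicate 2. Sost spread widely in both groups, at 386, 809 and 315 against 236, 93.00 and 389.6 FPKM (1.17, 95% interval -0.46 to 2.80), and its groups overlapped.

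Osteoclast genes mostly had positive differences, 19 of 22, and none passed the test. Of the 22 tested genes 5 stood above without overlap (22.7%) and 0 below (0%), with a median of 0.38. Loaded replicate 1 did not share the higher level: the list's median in that library lay 0.09 below the non-loaded mean, against 0.55 and 0.63 above it in loaded replicates 2 and 3. Acp5, the tartrate-resistant acid phosphatase, was at 136, 453 and 414 FPKM in loaded and 154, 142 and 210.3 FPKM in non-loaded libraries (0.82), and Ctsk, the protease that degrades bone collagen, at 381, 1041 and 1002 against 419, 439.8 and 851 FPKM (0.45). In both genes loaded replicate 1 was lowest of all 6 libraries. The 5 without overlap were receptors and regulators: Tnfrsf11a, the receptor RANK, at 3.74, 7.18 and 6.33 against 2.9, 3.59 and 3.14 FPKM (0.65), Siglec15 (0.87), Calcr (0.82), Itgb3 (0.55) and Nfatc1 (0.32). Without loaded replicate 1 the median of the list was 0.59, and without loaded replicate 2 or 3 it was 0.23.

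The list of the RANKL axis and of factors that couple osteoclasts and osteoblasts had 6 of 14 tested genes above without overlap (42.9%). None stood below (0%), and the median was 0.42 (0.24 without loaded replicate 2, 0.64 without loaded replicate 1). Tnfsf11, which encodes RANKL, was at 2.29, 2.67 and 4.77 FPKM in loaded and 1.08, 2.22 and 1.65 FPKM in non-loaded libraries (0.66, 95% interval -0.18 to 1.49). Tnfrsf11b, which encodes the decoy osteoprotegerin, was at 3.82, 5.72 and 3.74 against 1.69, 2.58 and 3.55 FPKM (0.60). Both thus had higher values in loaded bone, by differences of like size. Csf1, the growth factor of osteoclast precursors, was at 24.4, 33.2 and 35.8 against 20.4, 16.99 and 21.97 FPKM (0.62), and Cthrc1, a factor released during bone turnover, at 34.1, 23.95 and 25.9 against 8.67, 21.4 and 17.4 FPKM (0.86).

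The Wnt pathway as a whole stood near 0, with a median of 0.06 over 36 tested genes, 5 above without overlap (13.9%) and 3 below (8.33%). That median was -0.02 without loaded replicate 2 and 0.29 without loaded replicate 1. Those above were the co-receptor Lrp5 at 23.05, 26.6 and 18.02 FPKM in loaded and 12.2, 12.1 and 17.2 FPKM in non-loaded libraries (0.67), the ligands Wnt4 (0.50) and Wnt5b (0.45), the receptor Lgr4 (0.81) and the nuclear factor Tcf7 (0.54). Axin2, the usual readout of canonical Wnt signalling, was among those below, at 2.31, 2.11 and 2.35 against 2.58, 2.84 and 2.52 FPKM (-0.16). Secreted inhibitors went in both directions without passing the test: Sost was at 1.17 (0.60 without non-loaded replicate 2), Wif1 at 0.61 (0.12 without loaded replicate 2), Dkk2 at -0.36 and Sostdc1 at -0.50 (-0.23 without loaded replicate 1). Among BMP and TGF-beta genes 8 of 34 stood above without overlap (23.5%) and 0 below (0%), with a median of 0.30, which was 0.13 without loaded replicate 2. Bmp3, a BMP antagonist of bone, was at 19.7, 33.3 and 21.00 against 6.47, 9.52 and 13.04 FPKM (1.28), and the pseudoreceptor Bambi at 19.8, 31.7 and 19.9 against 8.91, 7.37 and 18.9 FPKM (1.03). Bmp2, an inducer of bone formation, was at 9.81, 14.5 and 9.78 against 9.74, 6 and 7.68 FPKM (0.49).

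Load-sensing genes had a median of 0.15 over 22 tested genes, with 6 above without overlap (27.3%) and 0 below (0%). Panx3, given above, was the extreme of the list, and the gap junction gene Gja1, which links osteocytes, was at 59.7, 72.1 and 46.4 FPKM in loaded and 30.4, 24.5 and 44.4 FPKM in non-loaded libraries (0.84). The integrin chains Itgav (0.63) and Itgb1 (0.34) also had no overlap. Piezo1, the stretch-activated channel, was level at 26.9, 25.4 and 26.3 against 28.9, 27.5 and 21.7 FPKM (0.02, 95% interval -0.35 to 0.39, and -0.10 without non-loaded replicate 3).

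Immediate early genes, which respond to a stimulus within minutes to hours, included 4 of 20 tested genes below without overlap (20%, against 9.4% of all genes) and 0 above (0%). Their median of -0.06 changed sign without loaded replicate 3 (0.11) or non-loaded replicate 3 (0.03). Nr4a1 (ENSRNOG00000007607), an orphan nuclear receptor induced by cyclic AMP, was at 5.85, 7.26 and 6.21 FPKM in loaded and 26.2, 19.4 and 15.6 FPKM in non-loaded libraries, a ratio of the means of 0.316 (-1.50, 95% interval -2.39 to -0.61, adjusted p = 0.602). The 3 loaded values lay within a narrow range, and the highest of them was below the lowest non-loaded value. Fos was at 6.48, 18.1 and 10.4 against 25.5, 19.7 and 25.3 FPKM (-1.05), Egr1 at 16.3, 25.5 and 15.2 against 36.6, 25.6 and 30.4 FPKM (-0.69) and Ier2 at 11.7, 11.8 and 12.5 against 15.96, 15.4 and 13.5 FPKM (-0.30). Jun overlapped at -0.20, and Klf4 stood at 0.38. In the same tissue Ccn1, a target of the stretch-responsive factor YAP, was at 20.03, 16.3 and 13.3 against 33.8, 24.8 and 43.9 FPKM (-0.99), while the other YAP and TAZ targets had a median of 0.21 together with it over 20 genes, 2 above (10%) and 2 below (10%) without overlap.

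The promoter of Nr4a1 is shown because it was the lowest of these genes and because its letters contain repeats of a binding sequence for cyclic AMP response factors. The 250 bases before its start (RefSeq, GRCr8, chr7:134259888-134260137, plus strand) are printed 5′ to 3′, with each match to the CRE-like letters TGCGTCA in capitals.
Nr4a1: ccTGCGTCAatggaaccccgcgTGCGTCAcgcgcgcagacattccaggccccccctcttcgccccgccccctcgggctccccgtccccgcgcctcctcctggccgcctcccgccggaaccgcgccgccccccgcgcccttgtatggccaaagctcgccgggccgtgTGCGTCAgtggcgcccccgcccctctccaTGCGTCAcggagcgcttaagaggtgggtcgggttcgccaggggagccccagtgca
The motif was searched on both strands (reverse TGACGCA) in windows of 300 bases, from 250 before to 50 after the start. Nr4a1 held 4 matches, beginning 248, 228, 84 and 55 bases before the start. Of all 27457 promoters of that length 573 held at least 1 (2.09%), 22 at least 2, and Nr4a1 was the 1 promoter with 4. Because Nr4a1 was shown for its repeats, this rank is a description and not a test. The motif was found in 2 of 12 promoters of immediate early genes (16.7%), Nr4a1 included, and 0 of 15 of bone matrix genes (0%).

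On the lower side, B cell precursors were the group with the widest separation. All 21 matched B lineage genes were tested, 10 stood below without overlap (47.6%, against 9.4% of all genes) and 1 above (4.76%), with a median of -0.69 and 0 called (smallest adjusted p = 0.600). Rag1, part of the recombinase that assembles antibody genes, was at 11.8, 9.92 and 19.9 FPKM in loaded and 25.8, 25.7 and 30.1 FPKM in non-loaded libraries (-0.98, adjusted p = 0.6). Vpreb3, a chaperone of the pre-B cell receptor, was at 9.12, 8.28 and 18.5 against 20.8, 28.99 and 22.98 FPKM (-1.03). Pax5, the factor that fixes B cell identity, was at 15.4, 12.8 and 23.8 against 30.8, 25.4 and 29.3 FPKM (-0.73), and Cd79a, a signalling chain of the B cell receptor, at 139, 98.9 and 187 against 224, 271 and 194 FPKM (-0.73). Loaded replicate 3 was the nearest to the non-loaded libraries in each of these 4 genes. Spib, a factor of B cells and plasmacytoid dendritic cells (-1.25), and Niban3, which B cells express (-1.56), were among the 12 lowest genes. The exception was Mzb1, a chaperone of antibody secretion, at 71.5, 55.1 and 59.4 against 35.2, 30.9 and 55.1 FPKM (0.64). Without loaded replicate 2 the median of the list was -0.46.

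Neutrophil granule genes had lower levels as well, 7 of 19 tested without overlap (36.8%) and 0 above (0%), with a median of -0.53 and 0 called. Mpo, the myeloperoxidase made by precursors, was at 367, 477 and 332 FPKM in loaded and 726, 530.2 and 544 FPKM in non-loaded libraries (-0.62). Ms4a3, a marker of granulocyte precursors, was at 28.5, 46.5 and 40.6 against 85.6, 65.6 and 72.5 FPKM (-0.95), and Ngp, a granule protein of later stages, at 629.7, 732 and 564 against 1486, 1206 and 758 FPKM (-0.79). Non-loaded replicate 1 was the highest library in all 3, and without it the median of the list was -0.35. The precursor proteases Elane (-0.23) and Ctsg (-0.14) overlapped between the groups.

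The alpha-defensin genes of neutrophil granules were among the 12 lowest genes. Np4 was at 673, 1063 and 1387 FPKM in loaded and 2855, 2409 and 2339.7 FPKM in non-loaded libraries (-1.34), RatNP-3b at 579, 937 and 1258 against 2451, 2745 and 1714 FPKM (-1.36), Defa5 at 488, 971 and 1122 against 2544, 1974 and 2055 FPKM (-1.43) and Defa11 at 14.6, 31.6 and 42.1 against 109, 64.04 and 65.3 FPKM (-1.48). Loaded replicate 1 was the lowest library in all 4. These genes are close copies, reads may be shared between them, and the 4 are not independent. The 250 bases before the start of the 3 that had an entry are shown because these genes were low in the same libraries and their promoters are near-copies (RefSeq, GRCr8, 5′ to 3′, minus strand: Np4 chr16:77199643-77199892, RatNP-3b chr16:77248978-77249227, Defa11 chr16:77238042-77238291). Capitals mark matches to the RUNX motif TGTGGT, here all in its reverse form ACCACA.
Np4: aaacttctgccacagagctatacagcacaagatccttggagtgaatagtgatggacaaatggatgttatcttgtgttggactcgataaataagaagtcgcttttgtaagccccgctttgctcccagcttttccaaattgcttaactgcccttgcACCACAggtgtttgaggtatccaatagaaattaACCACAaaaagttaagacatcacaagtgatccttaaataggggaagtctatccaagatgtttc
RatNP-3b: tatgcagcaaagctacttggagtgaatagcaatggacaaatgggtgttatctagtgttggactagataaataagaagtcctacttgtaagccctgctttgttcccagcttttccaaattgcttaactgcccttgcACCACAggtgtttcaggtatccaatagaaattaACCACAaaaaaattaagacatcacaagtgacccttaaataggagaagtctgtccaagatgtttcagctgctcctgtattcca
Defa11: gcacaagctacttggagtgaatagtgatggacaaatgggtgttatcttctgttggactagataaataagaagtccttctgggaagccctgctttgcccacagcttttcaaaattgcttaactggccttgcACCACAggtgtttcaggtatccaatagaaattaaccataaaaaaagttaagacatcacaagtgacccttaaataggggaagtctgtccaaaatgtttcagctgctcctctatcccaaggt
Over the windows of 300 bases Np4 and RatNP-3b were identical at 93.2% of aligned bases, Np4 and Defa11 at 92.4%, and RatNP-3b and Defa11 at 92.8%. Np4 and RatNP-3b held 2 matches each and Defa11 held 1. At least 1 match was found in 16.9% of all 27457 promoters and at least 2 in 1.89%. The RUNX motif was found in 3 of 15 promoters of bone matrix genes (20%), 1 of 10 of mineralization genes (10%) and 0 of 6 of the 12 highest genes (0%).

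Cell cycle genes, which mark dividing cells, all stood below 0: 28 of 28, against 54.6% of all genes, with 6 below without overlap (21.4%) and 0 above (0%), and a median of -0.32. Mki67 was at 114, 68.6 and 97.9 FPKM in loaded and 137, 129 and 114 FPKM in non-loaded libraries (-0.46), and Top2a at 75.1, 47.9 and 66.2 against 94.3, 80.6 and 75.5 FPKM (-0.42). Loaded replicate 2 was the lowest library in both, and without it the median of the list was -0.17. Erythroid genes were below 0 in 16 of 17 cases, but 1 was without overlap (5.88%), Tfrc, the transferrin receptor, at 163, 108 and 167 against 192, 241 and 199 FPKM (-0.55). Their median of -0.34 rested on loaded replicate 2, without which it was -0.08. Slc4a1, the red cell anion exchanger, was at 822, 398 and 738 against 891, 1023 and 616 FPKM (-0.41).

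The other genes among the 12 lowest belonged to none of these groups. Ctrb1, which encodes the pancreatic enzyme chymotrypsinogen, was listed at 0.374, 0 and 0 FPKM in loaded and 18.3, 14.1 and 2.76 FPKM in non-loaded libraries (log2 difference -3.21, adjusted p = 0.588). Nup210l, a relative of a nuclear pore protein known from testis, was at 1.3, 1.88 and 3.18 against 6.67, 6.74 and 5.2 FPKM (-1.25), and Pde6h, a phosphodiesterase subunit of cone cells, at 6.86, 5.26 and 6.39 against 14.9, 18.6 and 13.5 FPKM (-1.21). All 3 genes are known from other tissues. The small RNA genes Snord95 (4.21, 4.56 and 4.39 against 9.34, 14.2 and 11.95 FPKM, -1.24) and Mir293 (0.993, 2.58 and 2.49 against 7.06, 7.23 and 5.64 FPKM, -1.38) are not polyadenylated in their mature form, and the library protocol selected polyadenylated RNA. Both values rest on few reads. Snord95 had 14 reads in all loaded and 35 in all non-loaded libraries, and Mir293 had 7 and 21. The 95% interval of Mir293 ran from -2.94 to 0.17.

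Loaded replicate 2 had both the highest medians of the bone matrix, collagen processing, mineralization and osteocyte lists and the lowest of erythroid, B lineage and cell cycle lists. Its bone matrix list lay 1.27 above the non-loaded mean and its erythroid list 0.95 below, and in loaded replicate 1 the values were 0.79 above and 0.04 above. In loaded replicate 1 the neutrophil granule list stood at -0.51 and the B lineage list at -0.53 against the non-loaded mean. The summed FPKM of the 17 matched erythroid genes was 1805 to 3569 in loaded and 2806 to 3912 in non-loaded libraries. That of the 22 matched neutrophil genes, tested or not, was 7522 to 8279 and 9478 to 14949.5. The part of the marrow content in the bone results was not tested.

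**Figure D4:**
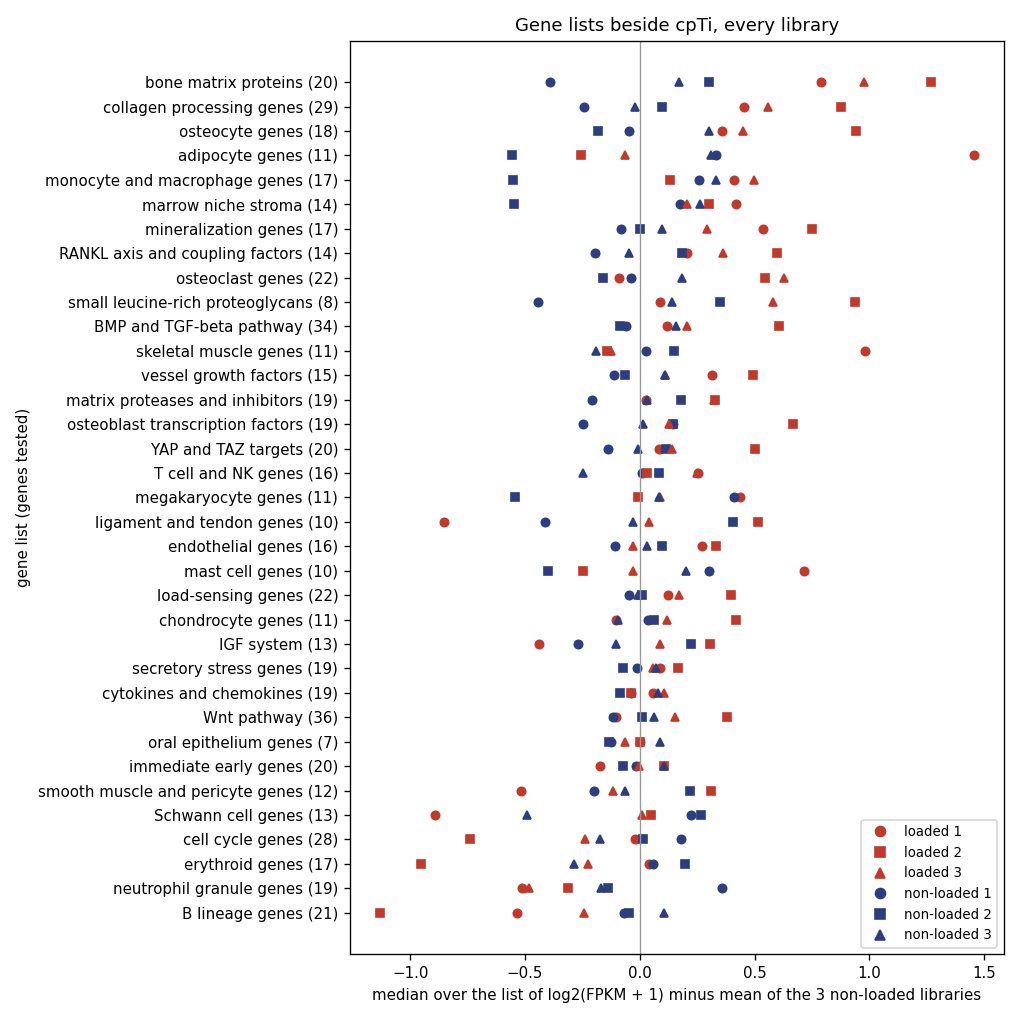
Median over each gene list of log2(FPKM + 1) minus the mean of the 3 non-loaded libraries (x axis), for lists with at least 5 tested genes (y axis, number tested in brackets), loaded libraries in red and non-loaded in blue, with 1 symbol per replicate number. Bone matrix and collagen processing lists have all 3 loaded libraries above all non-loaded ones, B lineage and neutrophil granule lists have all below, loaded replicate 1 stands apart in the adipocyte and muscle lists, and loaded replicate 1 and non-loaded replicate 3 are both low in the Schwann cell list.

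Other immune and stromal groups differed in direction. Monocyte and macrophage genes had 5 of 17 above without overlap (29.4%) and 0 below (0%), with a median of 0.47. Csf1r, the receptor of this lineage, was at 63.3, 80.4 and 76.5 FPKM in loaded and 52.3, 39.5 and 56.6 FPKM in non-loaded libraries (0.57, adjusted p = 0.602), and Cd68, a lysosomal protein of macrophages and osteoclasts, at 75.1, 95.1 and 91.4 against 54.7, 39.8 and 71.6 FPKM (0.68). Non-loaded replicate 2 was lowest in both, and without it the median of the list was 0.19. T cell and NK genes had 4 of 16 above (25%) and 1 below (6.25%), with a median of 0.20, and Cd3d, a chain of the T cell receptor complex, was at 1.52, 1.49 and 2.49 against 1.44, 1.03 and 0.446 FPKM (0.54). The summed FPKM of the 16 matched T cell and NK genes went the other way, at 117, 114 and 117 against 150, 129 and 132. Endothelial genes had 4 of 16 above (25%) and 0 below (0%), with a median of 0.16, and Cdh5, the adhesion molecule of vessel walls, was at 21.1, 19.99 and 18.4 against 12.6, 13.5 and 14.1 FPKM (0.53). Cytokines and chemokines were level, with a median of 0.08 over 19 tested genes and 1 gene without overlap on each side (5.26%). Cxcl1, which attracts neutrophils, was the lower one, at 0.57, 0.432 and 1.19 against 1.96, 2 and 2.16 FPKM (-0.84). Igfbp6, an inhibitor of IGF action, had 1 of the larger differences at 1.63, 8.92 and 3.28 against 8.75, 22.03 and 20.3 FPKM (-1.81), and its groups overlapped through loaded replicate 2 and non-loaded replicate 1. 

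The loading effects beside the materials were set against each other in a test of the difference, the effect beside cpTi minus that beside Nb3. The 3 loaded Nb3 libraries stood apart, with 11.3% to 24.3% of reads on mitochondrial genes against 4.31% to 6.86% in the other 9, so this test compares with a group of unusual libraries. It called 3089 genes (20.2%), 1804 with a more positive effect beside cpTi (11.8%) and 1285 with a more negative one (8.42%). The second count was 738 without loaded cpTi replicate 1, 767 without non-loaded cpTi replicate 2, 824 without loaded cpTi replicate 3, 751 without non-loaded Nb3 replicate 3 and 844 when scaled by total reads.

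Marrow genes differed between the materials. All 28 cell cycle and all 17 erythroid genes, 15 of 19 neutrophil genes, 8 of 11 megakaryocyte genes and 11 of 21 B lineage genes had a called difference (11.8% of all genes in that direction), and in each the effect beside Nb3 was the more negative. The median effect on neutrophil genes was -0.53 beside cpTi and -5.51 beside Nb3, that on erythroid genes -0.34 and -5.38, and that on B lineage genes -0.69 and -2.03. Mpo differed by 8.43 (adjusted p = 9.89e-07). In the other direction 13 of 16 endothelial genes, 10 of 13 Schwann cell genes and 9 of 12 smooth muscle genes had a more positive effect beside Nb3 (8.42% of all genes in that direction). The vessel adhesion gene Cdh5 stood at 0.53 beside cpTi and 1.89 beside Nb3 (adjusted p of the difference = 0.0474).

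Bone lists differed in how many effects were called different. Beside cpTi and Nb3 the bone matrix list had medians of 0.91 and 1.66, with 4 of 20 genes more negative beside cpTi (20%, against 8.42% of all genes). Collagen processing genes had medians of 0.61 and 1.22, with 9 of 29 more negative beside cpTi (31.0%). Osteoblast transcription factors had medians of 0.22 and 0.69, with 4 of 19 more negative (21.1%) and 1 more positive (5.26%, against 11.8% of all genes). The mineralization list stood at 0.44 and 0.46 with 1 of 17 more negative (5.88%), and the osteocyte list at 0.59 and 0.47 with 0 of 18 called (0%). None of the 12 panel genes had a called difference, and the intervals were wide: for Col1a1 the effect was 1.46 beside cpTi and 1.84 beside Nb3, and the 95% interval of the difference ran from -1.68 to 0.91. For Sost it ran from -0.67 to 3.95. The 4 matrix genes include Mgp, which stood at -0.68 beside cpTi and 3.80 beside Nb3 (adjusted p of the difference = 0.000495). Nr4a1 also differed, at -1.50 beside cpTi and 0.52 beside Nb3 (difference -2.02, adjusted p = 0.0306), and so did 6 other immediate early genes of the 20, in the same direction. The osteoclast list had medians of 0.38 and 0.61, with 3 of 22 genes more positive beside cpTi (13.6%, near the 11.8% of all genes). Among the 3 was Itgb3 at 0.55 and -0.82 (adjusted p of the difference = 0.0284), whose effect beside Nb3 was opposite in sign to the median of the list.

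**Figure D5:**
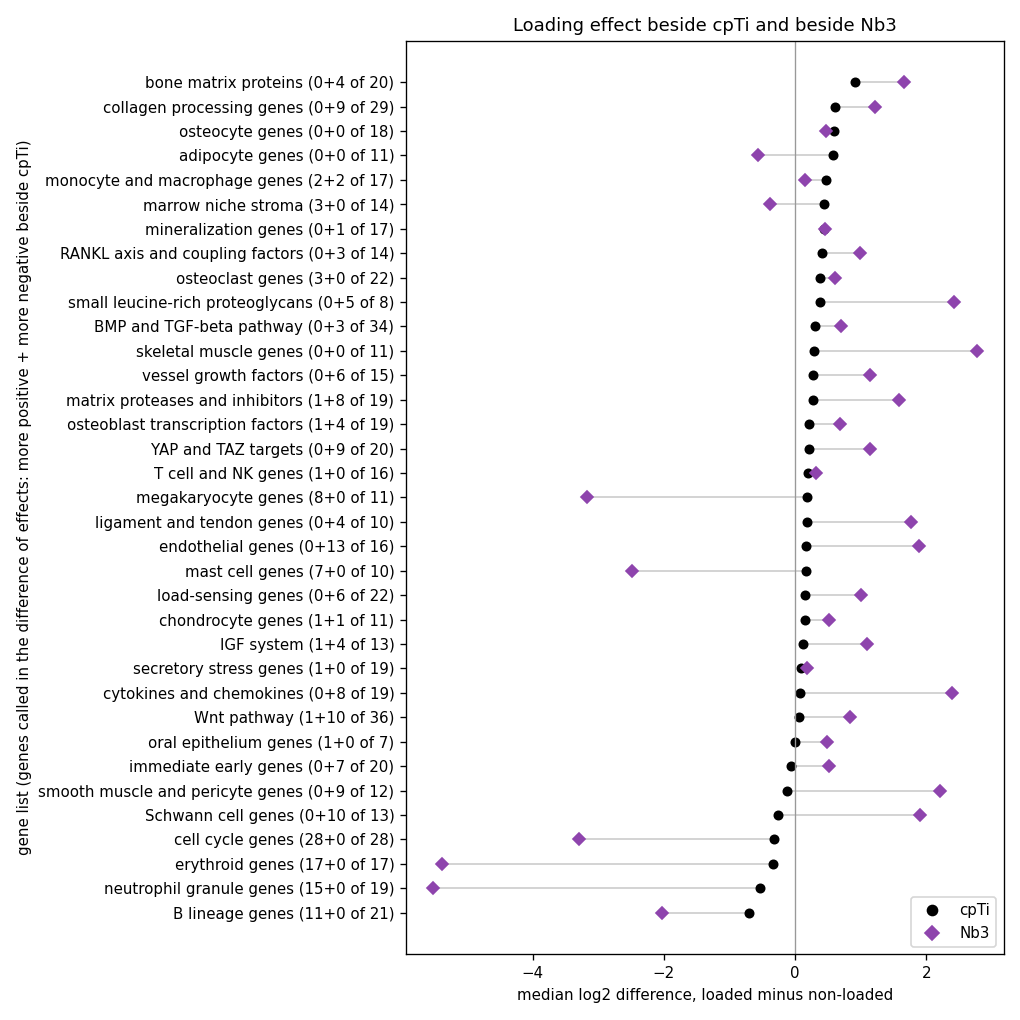
Median log2 difference, loaded minus non-loaded (x axis), of each gene list (y axis) beside cpTi (black circles) and beside Nb3 (purple diamonds), with the number of genes whose 2 effects were called different in brackets. Bone matrix, mineralization and osteocyte lists lie on the same side of 0 for both materials, while neutrophil granule and erythroid lists lie at -0.53 and -0.34 beside cpTi and at -5.51 and -5.38 beside Nb3.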

How the data were processed

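Bone tissue RNA was extracted with TRIzol and made into NEBNext Ultra libraries of polyadenylated RNA, per the labels' protocols. The authors deposited 1 table of FPKM values, with gene lengths and positions, for all 12 libraries. Per the submitters' processing notes, the tools were DESeq2 1.20.0, featureCounts 1.5.0-p3, HISAT2 2.0.5, fastp and CASAVA 1.8, with no step assigned to any. Genome build, annotation and strand use were each not given in the sources used here. FPKM times gene length gave whole reads for 100% of values within 0.01 read, so depth could be read from the table, and its scaling followed a median-of-ratios size factor and not the library total.

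Genes with at least 1 FPKM in at least 3 of 12 libraries were fitted on the log2(FPKM + 1) scale. The tool was limma 3.58.1 (R 4.3.3), with 1 mean for each of the 4 groups, all 12 libraries, 8 residual degrees of freedom, trended and robust moderation. P-values were Benjamini-Hochberg adjusted over all 15268 genes, the threshold was 0.05, and intervals are at 95%. The scale understates differences of low genes. A count model had been planned for the case that counts were deposited, and was not used as main test. Tables and plots used Python 3.11.15, pandas 2.3.3, numpy 2.4.6, scipy 1.17.1 and matplotlib 3.10.9. On simulated data for this comparison and 15268 genes the fit recovered 67% of 2-fold and 96% of 4-fold changes. Of its calls 6.32% were false. The changed genes were drawn from more abundant genes only, and their number was set in advance. The simulated spread was capped and independent between genes. These shares therefore do not tell how many real differences of that size the fit would call.

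The members and the 37 gene lists were chosen with earlier results of these data known. Of 679 listed genes 645 were matched and 578 tested. Lists share genes and are described by counts and medians, with no test of a list. Named genes are every called gene, filled to the 3 smallest p, the 12 highest and 12 lowest differences (symbol that is not a placeholder, mean of at least 5 FPKM in 1 group, no overlap), 12 bone panel genes, up to 5 per list in order of p, and the 5 highest and 5 lowest of the called differences from Nb3. The other names were chosen after their values were seen. A gene that the rule names and that is not listed is not reported here. RefSeq promoters (GRCr8) were matched by symbol. Alternatives were another pseudocount, filter, moderation or size factor, the cpTi libraries alone, limma-voom on whole reads, a replicate block and each library left out. Scaling by total reads and quantile normalization were chosen after seeing the data.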

Additional observations from a re-analysis of the deposited data

Results flagged for a closer look

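Of 149 named genes, 55 had a called difference between the loading effects beside cpTi and Nb3 (limma, Benjamini-Hochberg adjusted p of 9.89e-07 to 0.0474). The test was of the difference itself, and it called 20.2% of all genes. Elane, Ctsg, Car1, Matn4, Thbs2, Mfap4, Cxcl13 and Slpi were named only because their called differences were among the highest or lowest. Their calls thus followed from the choice. The same rule also picked RatNP-3b and Mpo, which had the smallest p. Values below are the log2 effect beside cpTi minus that beside Nb3. The 3 loaded Nb3 libraries stood apart from the other 9, and their part in these differences was not tested.

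Genes of granulocytes and their precursors had a more positive difference: Mpo 8.43, Elane 7.80, RatNP-3b 7.54, Ctsg 7.39, Defa5 7.34, Np4 7.28, Ngp 5.85, Ms4a3 5.23, Defa11 4.68 and Cebpe 4.22. The same held for red cell, platelet and mast cell genes, with Car1 at 7.74, Slc4a1 at 6.62, Tspo2 at 4.23, Gp1ba at 3.53, Hdc at 1.88 and Tfrc at 1.86. In B lineage genes and genes that B cells express the values were 3.17 for Spib, 3.10 for Pax5, 2.92 for Rag1, 2.41 for Vpreb3, 2.38 for Niban3, 2.12 for Cd79a and 1.86 for Fcrla. Cell cycle genes stood at 4.59 (Mki67), 3.92 (Top2a), 2.83 (Bub1b), 2.74 (Cenpf) and 2.70 (Cenpe). The unnamed gene on chromosome 4 was at 2.16 and the integrin chain Itgb3 at 1.38.

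Genes of soft matrix and its cells had a more negative difference: Matn4 -6.47, Thbs2 -6.18, Mfap4 -5.92, Fmod -4.66, Mgp -4.48, Igfbp6 -3.83, Lum -1.74 and Mmp19 -0.82. Smooth muscle, nerve and vessel genes followed, with Acta2 at -3.74, Cnn1 at -2.74, Ngfr at -2.26, Tek at -1.49, Cdh5 at -1.36, Pdgfa at -1.18 and Ephb4 at -1.09. Among secreted defence and chemokine genes Cxcl13 was at -5.33, Slpi at -5.05 and Cxcl1 at -3.15. Their effects beside cpTi itself were 0.61 for Cxcl13, 2.56 for Slpi and -0.84 for Cxcl1, and the groups of Cxcl13 and Slpi overlapped. Wnt pathway genes were at -2.56 (Sostdc1), -1.43 (Wnt4) and -1.43 (Dkk2), and immediate early genes at -2.02 (Nr4a1) and -1.62 (Jun). The remaining values were -1.89 for Snord95 and -0.58 for Itgb1.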

How the results depend on the processing

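The single call was unstable. The count of genes called lower was 0 with a pseudocount of 0.1, with the 6 cpTi libraries alone (1575 genes at an unadjusted p under 0.05) and by limma-voom on whole reads (1016 at that p), 2 with 1 FPKM required in 6 libraries and 3 after quantile normalization, and it ran from 0 to 4 as each library was left out. Without a filter 1 gene was called higher. Genes at an unadjusted p under 0.05 ran from 575 to 1352 with a library left out. The cpTi libraries of equal replicate number were not steadily alike (correlations of deviations -0.09, 0.11 and -0.25, and only replicate 2 correlated best with its own number). With 3 libraries per group these correlations cannot tell whether equal numbers were paired. The fit with a replicate block called 0 genes lower, against 1 without it, and 916 at an unadjusted p under 0.05. The count of more negative effects beside cpTi than beside Nb3 was 844 when scaled by total reads and 738 to 1292 with a library left out. Medians with a library left out ran from 0.29 to 0.61 for mineralization and from 0.39 to 0.72 for collagen processing genes. With 1 library left out the sign reversed for 6 of 149 named genes, whose differences ran from -0.25 to 0.38 (Spp1), -0.43 to 2.09 (Matn4), -1.28 to 0.34 (Thbs2), -0.036 to 0.35 (Car1), -0.76 to 2.09 (Adipoq) and -0.10 to 0.096 (Piezo1). Adipoq also reversed with a pseudocount of 0.1 (-0.028) and by limma-voom (-0.95), and the cause was not tested. With a library left out medians also ran from 0.10 to 0.26 (load-sensing), 0.08 to 0.32 (YAP and TAZ targets), 0.10 to 0.31 (endothelial), 0.12 to 0.31 (T cell and NK), 0.03 to 0.18 (cytokines) and 0.04 to 0.13 (secretory chaperones). The median SE of a difference was 0.20 on the log2 scale.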

Other observations

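Genes of the marrow niche stroma, cells that support blood formation, had a median of 0.44 over 14 tested genes, with 12 above 0, 2 above without overlap (14.3%, against 7% of all genes) and 0 below (0%), and the median was 0.11 without non-loaded replicate 2. Pdgfra, a growth factor receptor of stromal cells, overlapped at 13.3, 25.8 and 18.5 FPKM in loaded and 9.95, 13.5 and 14.7 FPKM in non-loaded libraries (0.53). Chondrocyte genes had 2 of 11 tested genes above and 2 below without overlap (18.2% each, against 7% and 9.4% of all genes). The 2 above are also expressed by osteoblasts: Col11a2, a chain of type XI collagen, was at 100.1, 149.5 and 107 FPKM in loaded and 50.1, 35.6 and 47.8 FPKM in non-loaded libraries (1.39), and Pth1r, the parathyroid hormone receptor, at 92.6, 148 and 82.00 against 44.97, 44.4 and 69.7 FPKM (0.99). The cartilage markers Col2a1 and Acan reached at most 6.91 and 3.54 FPKM. Vessel growth factors had 14 of 15 above 0, with 3 above without overlap (20%) and 0 below (0%) and a median of 0.28, among them Pdgfa at 11.6, 13.9 and 12.5 against 6.17, 6.99 and 11.4 FPKM (0.61), and Pdgfc overlapped (0.28). The receptor gene Tek of vessel walls was at 15.8, 19.8 and 13.3 against 10.96, 13.1 and 12.1 FPKM (0.39), and the eph receptor gene Ephb4 at 16.6, 19.7 and 16.6 against 10.7, 13.9 and 15.8 FPKM (0.38). Among matrix proteases and inhibitors 3 of 19 stood above (15.8%), and Mmp16, a membrane-bound metalloprotease, was at 10.9, 11.8 and 7.89 against 3.73, 2.85 and 6.62 FPKM (1.10). In loaded replicate 1 the fat gene Lpl was at 66.02 FPKM, and the other 5 libraries held 15.1 to 36.1 FPKM. The median of the 11 adipocyte genes was 0.58, which was -0.30 without that library and 0.01 without non-loaded replicate 2.

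Smooth muscle and Schwann cell genes lay mostly below 0, with medians of -0.13 over 12 and -0.26 over 13 tested genes. Genes without overlap did not lean to the lower side. The smooth muscle list had 1 above and 1 below (8.33% each, against 7% and 9.4% of all genes). The Schwann cell list had 1 above (7.69%), Ncam1 (0.47), and 0 below (0%). Cnn1, a smooth muscle calponin, was at 1.06, 1.73 and 1.63 against 2.2, 2.95 and 3.06 FPKM (-0.60), without overlap, and the smooth muscle actin Acta2 at 19.2, 55.8 and 46.02 against 48.4, 81.3 and 45.8 FPKM (-0.61). The smooth muscle median ran from -0.40 to 0.06 and the Schwann median from -0.65 to 0.00 as each library was left out, the first changing sign without loaded replicate 1. Megakaryocyte genes (0.19 over 11, with Gp1ba at 0.36) and mast cell genes (0.16 over 10, with Hdc at -0.67) had 0 genes above without overlap, and their medians changed sign without non-loaded replicate 2 (-0.08 and -0.16).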
